A study of Arabidopsis thaliana with 12 samples.

Results

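RALF-like (RALFL) genes encode small secreted peptides of the rapid alkalinization factor family. The probe sets described here are those assigned to a single gene whose symbol starts with RALFL, which gave 11 of the 22746 probe sets tested. A RefSeq table of the TAIR10.1 assembly lists 32 RALFL genes, and the other 21 were not analysed here. The arrays came from whole 10-day-old Arabidopsis thaliana seedlings of ecotype Col-0 on MS medium, in 4 genotypes with 3 biological replicates each: wild type and the T-DNA insertion mutants mbd4, mbd6 and mbd11. Each mutant lacks a normal copy of a gene for a methyl-CpG-binding domain protein, and the question was which transcripts differ when that gene is disrupted. No probe set was assigned to MBD4, MBD6 or MBD11 alone, so the labels could not be checked on the disrupted genes. The labels name neither the insertion alleles nor the number of lines per mutant.

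RALF peptides are cut from longer precursors and act outside the cell. They bind receptor kinases of the CrRLK1L family, of which FERONIA (FER) and THESEUS1 (THE1) are the best known, together with small membrane-anchored co-receptors, and they also bind leucine-rich repeat extensins in the cell wall. Their name comes from the rise in external pH that follows when the plasma membrane proton pump is inhibited. Family members are known for restraining root cell expansion, for shaping immune and salt responses, and for controlling pollen tube integrity.

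Values are log2 intensities as deposited, and every change is a difference of log2 means with its 95% interval, n = 3 per genotype. Intervals and p-values rest on a spread pooled over all genotypes, although the median SD was 0.353 in mbd11 and 0.112 to 0.134 in the others. For a probe set that spreads more in mbd11, the intervals of mbd11 changes tend to be too narrow. Its intervals for mbd4 and mbd6 against wild type then tend to be too wide. An adjusted p is that of limma's moderated test over all 22746 probe sets with Benjamini-Hochberg adjustment, and a probe set is called when it is under 0.05. Since RMA values carry no detection call, a member with a wild-type mean of 6 or more is called expressed here and one below 6 near background. In wild type 48.5% of all probe sets were below 6. A level depends on the probes as well as on the transcript, so levels are not ranked between genes. In RNA from whole seedlings, a change in the number of cells that express a gene and a change of its RNA per cell cannot be told apart.

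The mbd11 arrays stood apart from the other 9, and several values below are given with and without them. Their correlations with the others were 0.900 to 0.960, against at least 0.979 among those 9. Plant control transcripts carry probe sets at both ends, and the excess of the 3' over the 5' signal, which rises when RNA is shortened or labelling stops early, was 1.98 to 2.58 log2 units in mbd11. It was 1.17 to 1.5 in wild type, 1.20 to 1.30 in mbd6 and 1.08 to 2.08 in mbd4. The spread of log2 values was narrowest in mbd11 replicate 2, with an interquartile range of 2.83 against 3.83 to 3.90 in wild type. Of 26 organ markers listed 5 had a probe set of their own. The leaf photosynthesis genes RCA, LHCB4.1 and PRK had wild-type means of 13.74, 13.09 and 12.40, and all 3 fell in mbd11, to 12.71, 12.44 and 11.16. Over the 1131 probe sets with a wild-type mean of 10 or more, the median mbd11 change was -0.41 and the lower quartile -0.97. Of the 11707 probe sets at 6 or more, 4074 were called lower in mbd11. The root hair gene EXPA7 had means of 5.76 to 5.95, and the pollen actin gene ACT12 means of 3.39 to 3.93, over the 4 genotypes. The part of these differences between arrays in the results on RALFL genes was not tested, apart from the fits named below.

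Of the 11 members, 6 were expressed in wild-type seedlings and 5 were near background. The expressed members were RALFL22 (AT3G05490), RALFL24 (AT3G23805), RALFL31 (AT4G13950), RALFL32 (AT4G14010), RALFL33 (AT4G15800) and RALFL34 (AT5G67070). The members near background were RALFL18 (AT2G33130), RALFL25 (AT3G25165), RALFL26 (AT3G25170), RALFL27 (AT3G29780) and RALFL28 (AT4G11510). RALFL24, with a wild-type mean of 7.13 (SD 0.17), was the nearest member above the level of 6, and RALFL27, at 5.70 (SD 0.02), the nearest below it. The other 4 members near background had wild-type means of 2.85 to 3.60, at which an array of this kind gives little more than its own noise. RALFL25 and RALFL26 lie close together on chromosome 3, with 1 gene between them in the RefSeq order. All 11 probe sets carry the plain name ending that Affymetrix gives to probes designed for 1 transcript.

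**Figure D1:**
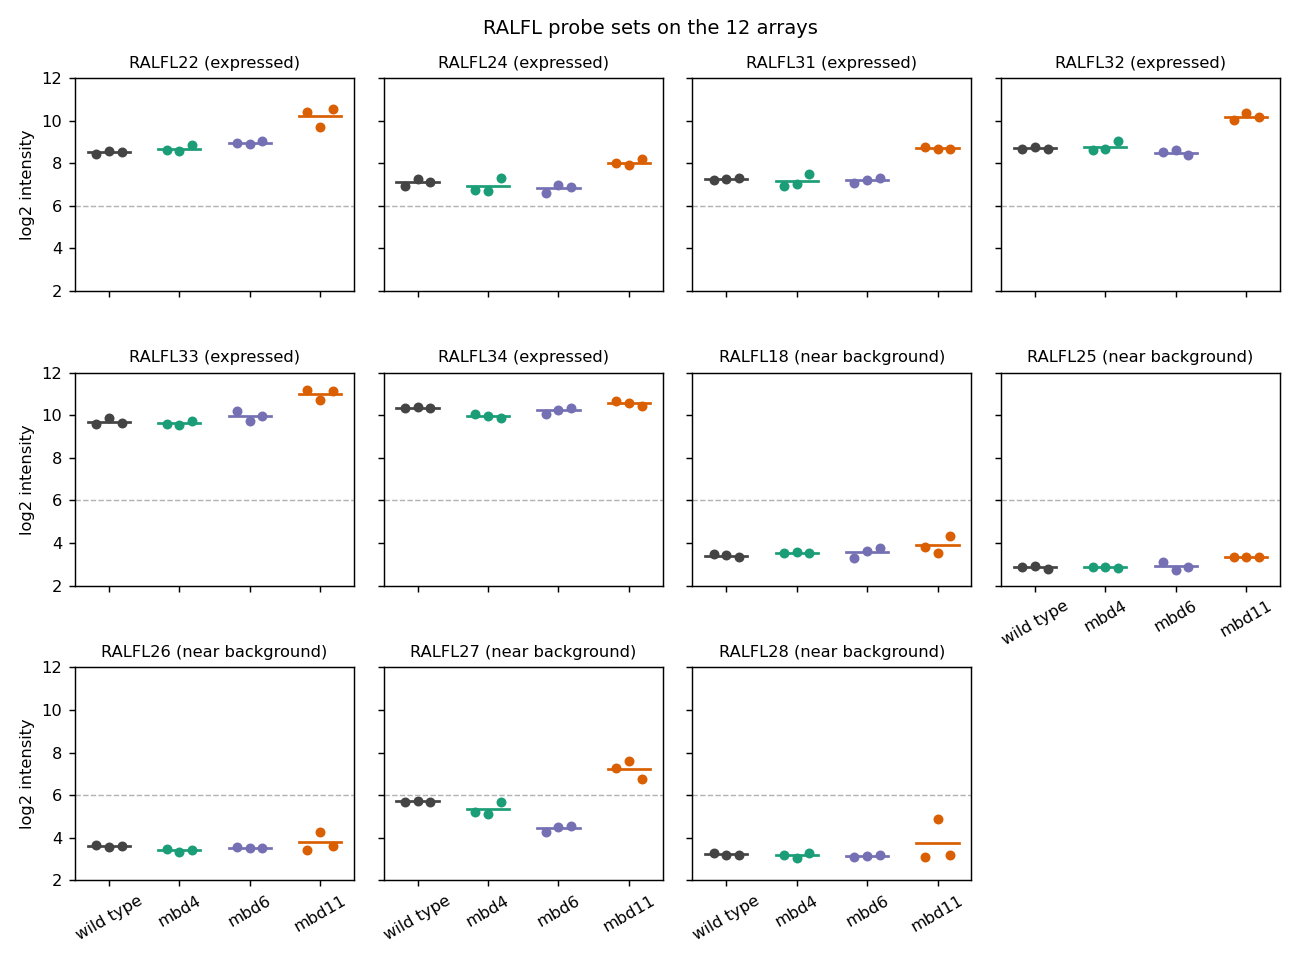
Log2 intensity of each RALFL probe set (y axis) on the 12 arrays, by genotype (x axis). Points are arrays, short lines are means of 3, and the dashed line marks the level of 6. All 3 mbd11 arrays lie above all wild-type arrays except for RALFL26 and RALFL28, and the 3 mbd6 arrays lie below wild type for RALFL27 and RALFL32.

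In mbd11 seedlings 5 of the 6 expressed RALFL genes were called higher than in wild type, by 1.9- to 3.3-fold. RALFL34, whose mean was higher by 0.21, was not called. RALFL27, near background in wild type, rose as well. Of the 11 members 7 were called higher and 0 lower, among them RALFL25, whose values were all under 4. All 11 means were above wild type, as were those of 12986 of the 22746 probe sets. Over all probe sets 40.2% were called in mbd11, 20.4% higher and 19.7% lower. Among probe sets with a wild-type mean of 6 or more 15.2% were called higher, and among those under 6 it was 26%. For 47.7% of all probe sets the values of mbd11 and wild type did not overlap. The median change was 1.39 over the 6 expressed members and 0.91 over all 11, beside 0.12 over all probe sets and -0.25 over those at 6 or more.

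RALFL22 encodes a peptide known from salt responses and from the cell wall. Its values were 8.45, 8.60 and 8.53 in wild type and 10.43, 9.72 and 10.55 in mbd11 replicates 1, 2 and 3. The mbd11 values were all higher, and replicate 2 was the lowest of them. The change was 1.71 (1.29 to 2.13), or 3.27-fold, with an adjusted p of 3.8e-05. Without mbd11 replicate 2 it was 1.97, and in a fit with the 3' excess as a covariate it was 1.35 (adjusted p = 0.00511). Centring each array on its median gave 1.81, and another quantile normalization 1.89.

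RALFL33 encodes a peptide that, with its close relative RALF23, is known for dampening immune signalling through FER. The wild-type arrays gave 9.60, 9.87 and 9.63 and the mbd11 arrays 11.21, 10.72 and 11.17, without overlap. Again replicate 2 was the lowest of mbd11. RALFL33 rose by 1.33 (0.97 to 1.70; adjusted p = 8.3e-05), a 2.52-fold change.

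RALFL31 and RALFL32 rose as well, and in neither was mbd11 replicate 2 the lowest. For RALFL31 wild type gave 7.21, 7.26 and 7.32 and mbd11 8.78, 8.68 and 8.66, a rise of 1.44 (1.11 to 1.78; adjusted p = 2.8e-05). For RALFL32 wild type gave 8.69, 8.77 and 8.68 and mbd11 10.06, 10.38 and 10.18, a rise of 1.49 (1.18 to 1.81; adjusted p = 1.5e-05). In both genes the distance between genotypes was many times the spread within them, whose SD was at most 0.16.

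RALFL24 had the smallest rise among the expressed members that were called. It was at 6.95, 7.29 and 7.15 in wild type and 8.0, 7.91 and 8.21 in mbd11, again with no overlap. The rise was 0.91 (0.52 to 1.31; adjusted p = 0.00194). It was 0.41 with the 3' covariate (adjusted p = 0.149), and it also missed the threshold when each genotype's arrays were weighted by their spread (adjusted p = 0.0507). Adjusted p ran from 0.00051 to 0.149 over all settings.

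RALFL34 encodes a peptide known from lateral root initiation and as a ligand of THE1. Its wild-type values were 10.33, 10.40 and 10.37 and its mbd11 values 10.70, 10.57 and 10.45. The mbd11 arrays were all slightly higher, but the change of 0.21 (-0.07 to 0.48) did not pass (adjusted p = 0.209). After a further quantile normalization of the arrays it was 0.38 and passed (adjusted p = 0.0291; 0.0291 to 0.495 over all settings).

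**Figure D2:**
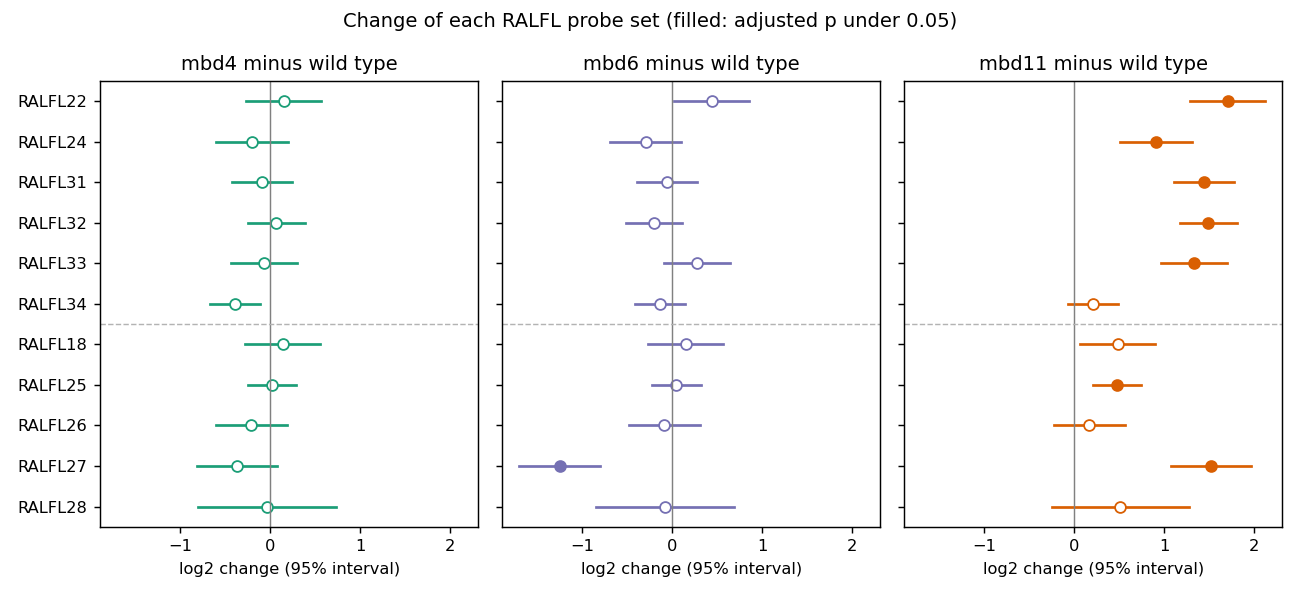
Change of each RALFL probe set from wild type in log2 units (x axis) with its 95% interval, in mbd4, mbd6 and mbd11. Filled points have an adjusted p under 0.05, and the dashed line separates the 6 expressed members (above) from the 5 near background. RALFL22, RALFL24, RALFL31, RALFL32 and RALFL33 are filled and between 0.91 and 1.71 in mbd11, and RALFL27 is filled in both mbd6 and mbd11.

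Among probe sets of 1 gene with a known length, the change in mbd11 went with gene length, and RALFL genes are short. The length classes were chosen after values had been seen. Gene length here is the span of the RefSeq gene, introns included, and it was 459 to 1933 bases over the 11 members. Among probe sets of 1 gene with a wild-type mean of 6 or more, those of genes of up to 1933 bases had a median mbd11 change of 0.24 and 36.8% were called higher. For longer genes the median was -0.35 and 8.22% were called higher. In the class from 500 to below 1000 bases, which holds RALFL24, RALFL31 and RALFL32, the median was 0.67 and 61.9% of 299 probe sets were called higher.

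Set against their own length class, the members differed among themselves. RALFL24 was inside the middle range of its class, whose quartiles were 0.29 and 1.17, and RALFL31 and RALFL32 lay between the upper quartile and the 95th percentile of 1.64. RALFL33, of 1209 bases, was just under the 95th percentile of the class from 1000 to below 1500 bases, at 1.35. RALFL34, of 1358 bases, was below the median of that class, at 0.32. RALFL22, of 1933 bases, lay above the 95th percentile of the class from 1500 to below 2000 bases, at 1.07, where the median was 0.02. These are positions in a distribution, with no test, and the part of gene length in the changes was not tested.

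**Figure D3:**
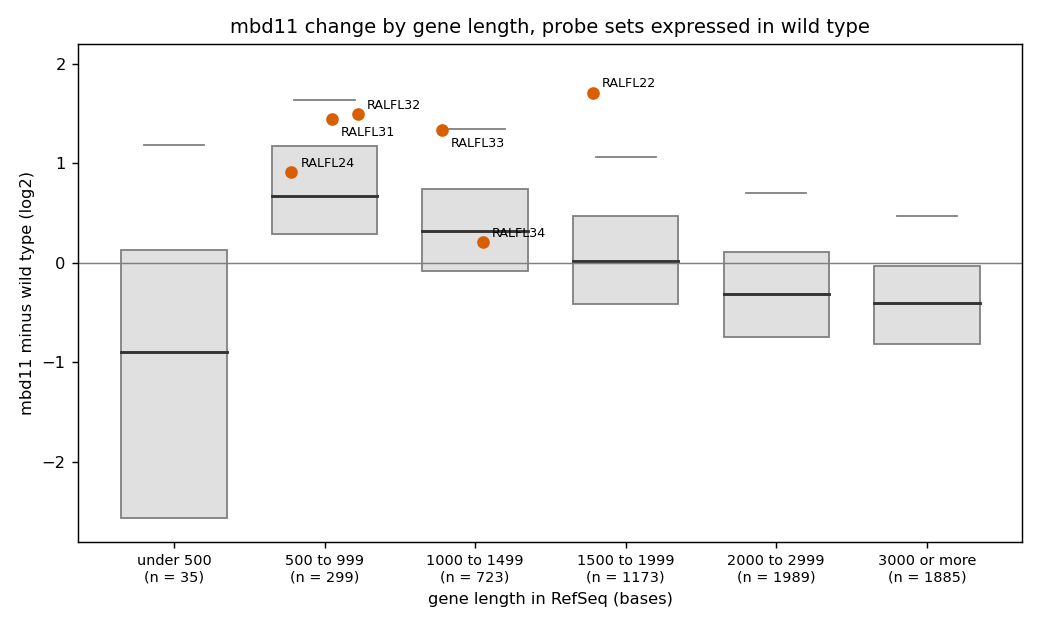
Change in mbd11 from wild type in log2 units (y axis) for probe sets of 1 gene with a wild-type mean of 6 or more, in 6 classes of gene length (x axis, bases). Boxes span the quartiles, thick lines are medians, thin lines are 95th percentiles and n counts probe sets; orange points are the 6 expressed RALFL genes. The median falls from 0.67 in the class from 500 bases to -0.40 in the class of 3000 bases or more, and the class under 500 bases, with 35 probe sets, does not follow that order.

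With the 3' covariate, RALFL22, RALFL31, RALFL32 and RALFL33 still rose, by 1.35, 1.15, 1.26 and 1.10 (adjusted p = 0.00511, 0.00352, 0.00204 and 0.00918). These 4 passed in each of the 22 settings tried, and these were their highest adjusted p. In the covariate fit RALFL27 rose by 1.47 (adjusted p = 0.00858). The covariate is itself nearly separated by genotype, since all mbd11 arrays exceeded all wild-type and mbd6 arrays in it, so the share of a change that goes with it and the share that goes with the mutation cannot be fully told apart.

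**Figure D4:**
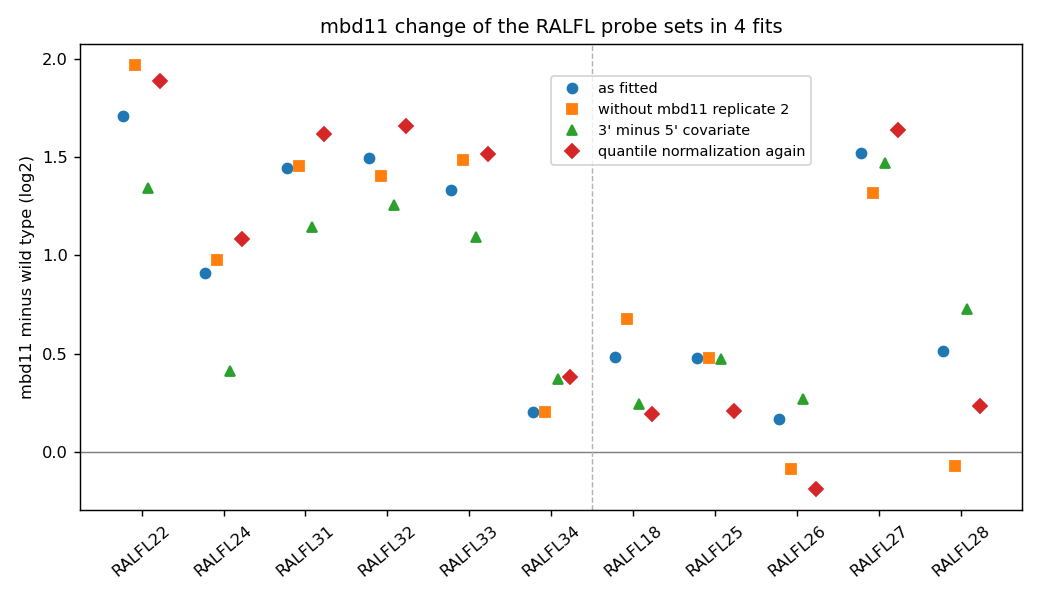
Change in mbd11 from wild type in log2 units (y axis) of the 11 RALFL probe sets (x axis) in 4 fits: the values as deposited, without mbd11 replicate 2, with the 3' excess of plant control transcripts as covariate, and after another quantile normalization. RALFL22, RALFL27, RALFL31, RALFL32 and RALFL33 stay above 1 in all 4 fits, RALFL24 drops to 0.41 with the covariate, RALFL26 and RALFL28 are below 0 without mbd11 replicate 2, and RALFL26 also after quantile normalization.

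RALFL27 was the only member called against wild type in opposite directions in different mutants. Its wild-type values were 5.69, 5.72 and 5.69, those of mbd6 were 4.28, 4.5 and 4.55, and those of mbd11 were 7.26, 7.62 and 6.77. The 3 groups did not overlap: mbd6 was the lowest, wild type intermediate and mbd11 the highest. RALFL32 had the same order without overlap, but its mbd6 difference of -0.20 was not called. For RALFL34, mbd4, wild type and mbd11 rose in that order without overlap, and neither mutant was called against wild type. RALFL27 fell by 1.25 in mbd6 (-1.70 to -0.81; adjusted p = 0.0025), to a 2.38-fold lower level, and rose by 1.52 in mbd11 (1.07 to 1.97; adjusted p = 0.00013). Both calls held in every setting in which the probe set was tested, with adjusted p up to 0.0173 in mbd6 and 0.00858 in mbd11.

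In mbd4 RALFL27 was at 5.22, 5.10 and 5.66, below all wild-type arrays, but the difference of -0.37 (-0.82 to 0.07) did not pass (adjusted p = 0.604). Replicate 3, the mbd4 array with the highest 3' excess, was the closest to wild type. The direct comparison of mbd6 with mbd4 gave -0.88 (-1.33 to -0.43; adjusted p = 0.0489), the only RALFL call between these mutants, where 2.05% of all probe sets were called and 1.1% lower. That call was at the threshold: it was lost in 15 of 21 alternatives (adjusted p = 0.00057 to 0.198 over all settings). Between mbd11 and mbd6 the difference was 2.77 (2.33 to 3.22; adjusted p = 3.4e-06), or 6.83-fold, the largest between any 2 genotypes for any of the 11 members.

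RALFL27 was the only member called in mbd6 against wild type, where 6.91% of all probe sets were called, 4% higher and 2.91% lower, and 36.1% did not overlap with wild type. RALFL22 had 8.95, 8.90 and 9.05 in mbd6, all above the wild-type values of 8.45 to 8.60. Its difference of 0.44 (0.02 to 0.86) did not pass (adjusted p = 0.264). In 4 settings that left out or down-weighted mbd11 arrays it passed at the same size, with adjusted p = 0.00704 with the 6 arrays compared alone, 0.00954 without all mbd11 arrays, 0.00463 with weights and 0.0158 without mbd11 replicate 2. RALFL33 gave 10.22, 9.73 and 9.99 in mbd6, overlapping wild type, with a difference of 0.28 (-0.08 to 0.65; adjusted p = 0.506). RALFL32 was at 8.52, 8.61 and 8.40 in mbd6, below all wild-type arrays, and RALFL31, at 7.07, 7.24 and 7.31, overlapped them. RALFL24, at 6.62, 6.99 and 6.89, and RALFL34, at 10.07, 10.26 and 10.37, also overlapped wild type. None of these 4 genes was called. RALFL24, RALFL31, RALFL32 and RALFL34 differed by -0.30, -0.05, -0.20 and -0.13 in mbd6, with adjusted p of 0.532 to 0.98.

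In mbd4 0 of the 11 members were called by limma's test, where 2.3% of all probe sets were called and 28.5% did not overlap with wild type. Only RALFL34 had an unadjusted p under 0.05. RALFL34 came closest: it was at 10.06, 9.99 and 9.88 in mbd4, below each wild-type array. The difference was -0.39 (-0.67 to -0.11) and did not pass (adjusted p = 0.187, unadjusted p = 0.00953). It passed in 3 settings that left out or down-weighted the mbd11 arrays, with adjusted p = 0.031 with the 6 arrays compared alone, 0.0292 without all mbd11 arrays and 0.0183 with weights. The other 5 expressed members differed from wild type by -0.20 to 0.15 in mbd4, and for each of them the interval included 0. RALFL22 was at 8.62, 8.57 and 8.85 and RALFL33 at 9.61, 9.56 and 9.73 in mbd4, each overlapping wild type. The mbd4 values of RALFL24 were 6.75, 6.71 and 7.33, those of RALFL31 were 6.95, 7.04 and 7.52, and those of RALFL32 were 8.64, 8.67 and 9.04. These 3 genes overlapped wild type too. In RALFL22, RALFL24, RALFL27, RALFL31, RALFL32 and RALFL33 replicate 3 was the highest mbd4 array, and it had the highest 3' excess of that genotype, at 2.08. For RALFL34 it was the lowest mbd4 array. Of the other members near background, RALFL28 was highest there, RALFL18 and RALFL25 lowest, and RALFL26 between. The part of that excess in these values was not tested.

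RALFL34 was called between mutants but not against wild type. In mbd11 it was higher than in mbd4 by 0.60 (0.32 to 0.88; adjusted p = 0.00302), where its wild-type values lay between the 2 mutants. That call was lost with weights (adjusted p = 0.0599; 0.00055 to 0.0599 over all settings). Against mbd6 the mbd11 difference of 0.34 was called at an adjusted p of 0.0497 and lost in 14 of 21 alternatives (adjusted p = 0.00636 to 0.252 over all settings).

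The other 5 expressed members were also higher in mbd11 than in each of the other mutants. Against mbd4 the differences were 1.56 for RALFL22, 1.11 for RALFL24, 1.54 for RALFL31, 1.42 for RALFL32 and 1.40 for RALFL33. Against mbd6 they were 1.27, 1.21, 1.5, 1.70 and 1.05 in the same order. The 10 differences were called in each setting tried. Over all probe sets 42.3% were called between mbd11 and mbd4 and 42.4% between mbd11 and mbd6, with 22.5% higher in mbd11 in each case. For these 5 genes mbd11 was the highest genotype, and no difference among wild type, mbd4 and mbd6 was called in the fit on all 12 arrays. These comparisons share arrays and are not independent of one another.

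Near background, RALFL18, RALFL25, RALFL26 and RALFL28 stayed under 5 on all 12 arrays. RALFL25 was called higher in mbd11, from 2.86, 2.91 and 2.79 in wild type to 3.32, 3.34 and 3.34 (0.48; adjusted p = 0.0089). These values are all under 4, and with values under 4 raised to that floor the difference was 0. It also missed the threshold with the covariate (adjusted p = 0.0822), with weights (0.125), with the 6 arrays compared alone (0.0544) and after another quantile normalization (0.272; 0.00371 to 1 over all settings). Among the 6054 probe sets with a wild-type mean under 4, the median mbd11 change was 0.39 and 28.5% were called higher.

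RALFL28 rested on 1 array. Its mbd11 values were 3.09, 4.90 and 3.18, of which replicate 2 alone exceeded the wild-type range of 3.17 to 3.25. The change of 0.52 (-0.25 to 1.28; adjusted p = 0.25) was -0.07 without that array. RALFL26 had its highest value on the same array, at 4.28, and its change of 0.17 was -0.08 without it. RALFL18 was at 3.48, 3.43 and 3.33 in wild type and 3.82, 3.51 and 4.34 in mbd11, without overlap. RALFL18 differed by 0.48 in mbd11 (0.07 to 0.90; adjusted p = 0.0608), with its highest value in replicate 3. It passed without replicate 2 (0.67; adjusted p = 0.00458) and with arrays centred on their medians (adjusted p = 0.0184; 0.00458 to 0.562 over all settings). In mbd4 and mbd6 these 4 members differed from wild type by -0.21 to 0.15, with intervals that included 0.

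The 5 members that were expressed in wild type and called higher in mbd11 varied together over the 12 arrays, with Pearson r of 0.84 to 0.97 between the 10 pairs. Over the 9 arrays without mbd11 the same pairs ran from -0.43 to 0.83. RALFL34 had r of 0.61 to 0.71 with these 5 over the 12 arrays and of -0.44 to 0.24 over the 9. All points share their arrays, and the correlation over 12 arrays contains the step to mbd11.

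By the same measure over the 12 arrays, the probe sets of 1 gene most like RALFL22 were BIGYIN (r = 0.986), VPS2.1 (0.985), AT4G37240 (0.984), AT1G07135 (0.981) and AT2G28755 (0.981). Without mbd11 their r was 0.942, 0.927, 0.898, 0.903 and 0.735 over 9 arrays. BIGYIN encodes a protein of organelle fission and VPS2.1 a subunit of the membrane-sorting ESCRT complex. For RALFL34, taken as the probe set with the highest wild-type log2 mean, which ranks no transcripts, the most alike were AT3G06600 (0.960), AT2G01610 (0.953), AT4G29030 (0.944), AT1G03730 (0.940) and AT5G44050 (0.940). Without mbd11 these gave r of 0.930, 0.900, 0.937, 0.879 and 0.868 over 9 arrays. Both lists hold the highest r among all probe sets of 1 gene, so high values follow from the choice.

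Other genes of the pathway came from a list of 51 genes for RALF perception and response, of which 23 had a probe set of their own. These were 12 of 17 receptor kinases, 8 of 11 wall extensins, the precursor-cleaving protease gene S1P and 2 of 16 downstream genes. The co-receptors and RALF1 were not analysed here. Of the 23, 2 receptors and 1 wall extensin had a wild-type mean of 6 or more, and the others were near background. In mbd11 8 of the 23 were called higher and 1 lower (20.4% and 19.7% over all probe sets). Of the 11039 probe sets under 6 in wild type, 2867 (26%) were called higher in mbd11 and 418 lower. In mbd6 2 were higher and 0 lower (4% and 2.91% over all probe sets), and in mbd4 1 was higher and 0 lower (1.53% and 0.769%). Alternatives for these genes were added after the data were seen. Median changes over the 23 were 0.03 in mbd4, 0.06 in mbd6 and 0.21 in mbd11. The mbd11 median was 0.12 over all probe sets and 0.33 over those under 6 in wild type.

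The receptor genes FER and THE1 went in opposite directions in mbd11. Of the 12 receptors measured, these 2 had wild-type means of 6 or more. FER gave 9.36, 9.45 and 9.40 in wild type and 9.03, 8.29 and 8.79 in mbd11, where it fell by 0.70 (adjusted p = 0.00661). The FER call was lost with the 6 arrays compared alone (adjusted p = 0.054) and with the covariate, where it was -0.65 (adjusted p = 0.0901; 0.00141 to 0.0901 over all settings). THE1 gave 7.08, 7.09 and 6.93 in wild type and 8.63, 8.14 and 8.12 in mbd11, a rise of 1.27 (adjusted p = 7.7e-05) that passed in all 22 settings. FER and THE1 span 3366 and 3302 bases, in the length class with a median mbd11 change of -0.40. The quartiles of that class were -0.81 and -0.03, and FER lay between them. THE1 lay above its 95th percentile of 0.47. The part of gene length in these changes was not tested.

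THE1 rose in mbd6 too, to 7.74, 7.68 and 7.54 (0.62; adjusted p = 0.0339). That call was lost with a replicate block (adjusted p = 0.0547), without wild-type replicates 1, 2 or 3 (0.0964, 0.0921 and 0.153), without mbd6 replicates 1, 2 or 3 (0.143, 0.112 and 0.0713) and without mbd4 replicates 1 or 2 (0.0523 and 0.0548; 0.00028 to 0.153 over all settings). FER was at 9.83, 9.86 and 9.86 in mbd6, above all wild-type arrays, without passing (0.44; adjusted p = 0.188). AT5G39030, listed as a receptor kinase, rose by 0.70 in mbd6 (adjusted p = 0.0241), a call lost when a single wild-type array was left out (0.0595, 0.101 and 0.099 for replicates 1 to 3) or a single mbd6 array (0.1, 0.094 and 0.0534; 0.00044 to 0.101 over all settings).

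Among the listed wall extensins, AT2G15880 was called in mbd4, from 3.63, 3.33 and 3.35 in wild type to 6.33, 6.04 and 6.28. It rose by 2.78 (adjusted p = 0.00013), and with the floor of 4 by 2.22. The further mbd11 rises on the list were those of AT2G15880 (1.28), AT3G22800 (0.87), AT5G25550 (0.67), AT2G39360 (0.92), AT5G39030 (0.54), ANX1 (0.86) and CML38 (1.46). ANX1, a receptor kinase gene of pollen tubes, AT2G15880 and AT5G25550 had wild-type values below 4 throughout, and with the floor of 4 the 3 lost their calls (adjusted p = 0.131, 0.0887 and 0.211). ANX1 and AT5G25550 also lost theirs with the 6 arrays compared alone (0.0637 and 0.0506), and AT5G25550 after another quantile normalization (0.0878). The mbd11 values of AT3G22800 overlapped wild type, and its call was lost in 12 alternatives (adjusted p = 0.00669 to 0.144 over all settings). That of AT5G39030 was lost in 5 alternatives, with a change of 0.24 under the covariate (adjusted p = 0.437; 0.0112 to 0.437 over all settings). CML38, a calmodulin-like gene, lost its call with the covariate (0.80; adjusted p = 0.251; 9.8e-05 to 0.251 over all settings). S1P differed by 0.14 to 0.27 in the 3 mutants without passing.

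**Figure D5:**
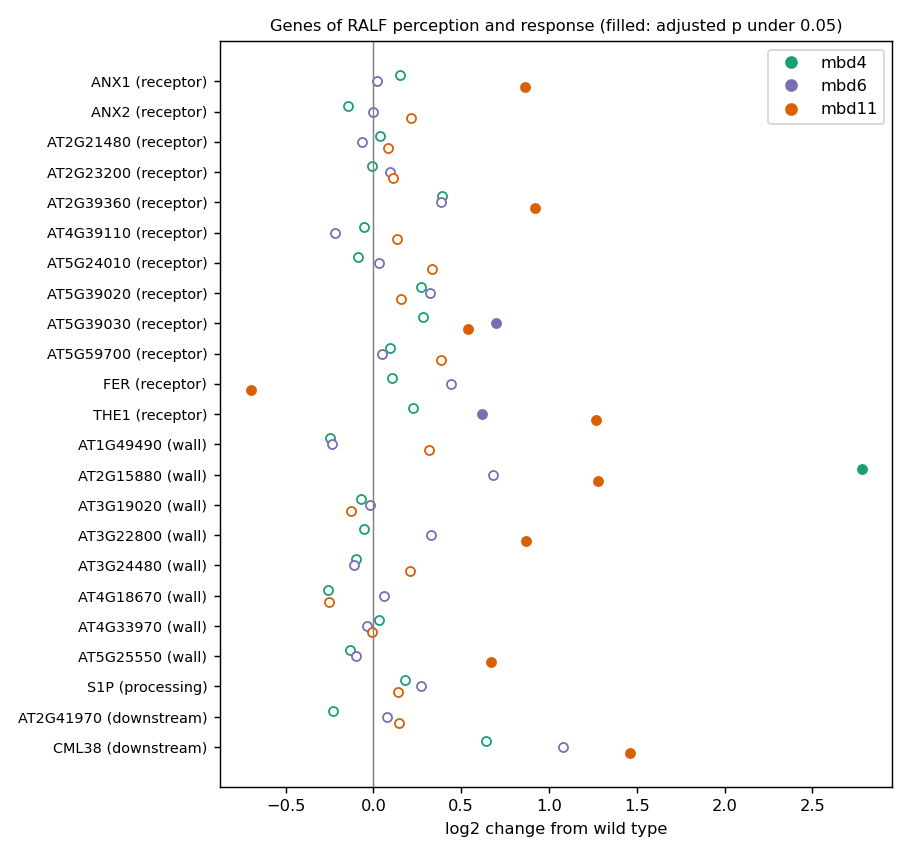
Change from wild type in log2 units (x axis) of the 23 measured genes of RALF perception and response (y axis, with the role given in the list), in mbd4, mbd6 and mbd11. Filled points have an adjusted p under 0.05. In mbd11 8 genes are filled to the right of 0, and FER, at -0.70, is filled to the left.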

How the data were processed

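The deposited values are log2 intensities that the authors made with RMA in R 2.11, per the submitters' processing notes. No scan date or batch is named in the labels. The table held 22810 probe sets on 12 arrays, without missing values or identical arrays. Tests covered 22746 of them, after 64 Affymetrix controls were set aside.

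Probe sets were named from the GEO platform annotation and matched to a RefSeq table (TAIR10.1), which gave a locus for 13508 of 13513 probe sets of 1 gene.

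Each probe set was fitted with 1 mean per genotype over all 12 arrays in limma 3.58.1 (R 4.3.3), with 8 residual and 4.43 prior degrees of freedom, and the 6 comparisons were taken as contrasts. P-values are two-sided. The fit was also run on simulated data, and the outcome of that run is not given here. Every member was reported; pathway genes were named where called in a mutant against wild type, and S1P was added after its values were seen. The members, the lists and the alternatives were chosen with earlier results of these data known. The likeness rule took the 5 highest Pearson r with RALFL22 and with the member of highest wild-type mean. Alternatives were other sets of arrays, weights, the covariate, centring, quantile normalization, a floor of 4, a filter at 6, a replicate block, a trended prior and leaving out each array. Figures were drawn with matplotlib 3.10.9. The number of arrays limits the precision.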

Additional observations from a re-analysis of the deposited data

How the results depend on the processing

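There were 3 arrays a genotype. The median SD within a genotype was 0.353 in mbd11 and 0.112 to 0.134 in the others, and the fit on all 12 arrays uses 1 spread for all. Where a probe set spreads more in mbd11, that fit tends to give p-values that are too small for mbd11. For mbd4 and mbd6 against wild type they then tend to be too large. Values under 4 carry little information. The rises of RALFL22, RALFL31, RALFL32 and RALFL33 in mbd11 and the mbd6 fall of RALFL27 were called in every setting that tested them; the filter at 6 left out RALFL27. Causes of lost or gained calls were not tested.

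RALFL calls in mbd4 were 1 with the 6 arrays compared alone, without all mbd11 arrays and with weights, and 0 without any single array. In mbd6 the same 3 settings gave 2 and the filter 0, and 1 to 2 were called without single arrays. In mbd11 single arrays moved the count from 7 to 8. Between mbd6 and mbd4 the count was 0 with the covariate, centring, quantile normalization, the floor, the filter or the replicate block, and 0 to 1 without single arrays. It was 8 to 9 for mbd11 with mbd4 and 6 to 9 for mbd11 with mbd6.

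Over all probe sets, with the 6 arrays compared alone, calls were 2004 in mbd4, 4535 in mbd6, 5100 in mbd11, 1779 for mbd6 with mbd4, 4510 for mbd11 with mbd4 and 5069 for mbd11 with mbd6. With weights they were 2389, 4880, 5262, 2463, 5002 and 5261 in that order. Without all mbd11 arrays they were 2212, 4106 and 2470 for mbd4, mbd6 and their difference. The covariate gave 5829 in mbd11 and 5790 against mbd6, and the filter 6223 and 6280 for mbd11 with mbd4 and mbd6. Without single arrays they ran from 259 to 1464, 807 to 3155, 6906 to 10757, 157 to 1638, 6877 to 11173 and 6980 to 11113. The fit reported gave 523, 1572, 9141, 467, 9621 and 9636.

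Equal replicate numbers did not pair the arrays: deviations of equally numbered arrays correlated at -0.38 to 0.22, and an array correlated best with its own number in 6 of 36 cases. With the replicate block 435, 1360 and 8811 probe sets were called in mbd4, mbd6 and mbd11 and 315 for mbd6 with mbd4. It kept the RALFL counts against wild type.

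The differences that changed sign were not called in the fit reported; the largest was that of RALFL28 in mbd11, at 0.52. RALFL26 in mbd11 was -0.19 after quantile normalization, and RALFL28 in mbd4 was 4.6e-05 with the covariate and 0.013 after quantile normalization. Without single arrays, changes in mbd11 ran from -0.084 to 0.34 for RALFL26 and from -0.071 to 0.83 for RALFL28. In mbd4 they ran from -0.010 to 0.047 for RALFL25, -0.095 to 0.026 for RALFL28, -0.27 to 0.018 for RALFL31, -0.059 to 0.14 for RALFL32 and -0.12 to 0.017 for RALFL33. In mbd6 they ran from -0.055 to 0.13 for RALFL25 and -0.10 to 0.014 for RALFL31. Expressed members numbered 7 at a level of 5 and 6 at a level of 7.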
